A study of Mus musculus with 16 samples.

Results

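The cytosolic ribosomal protein genes were examined in mouse seminal vesicles (SV) at week 5 after neonatal exposure to diethylstilbestrol (DES), a synthetic oestrogen. Members were chosen by symbol (Rps or Rpl followed by a number, with the endings a, x, l or a digit, plus Rplp0, Rplp1, Rplp2 and Rpsa) and by a group mean of more than 1 FPKM in any group. Of 85 matching symbols, 83 passed, out of 31274 genes in the table, with 33 in the small subunit and 50 in the large subunit. Of the other 2, Rpl10l was listed at 0 in every sample and Rpl39l reached a highest group mean of only 0.245 FPKM, while the members nearest the minimum were Rps15a with a highest group mean of 5.24 FPKM and Rpl3l with 7.78 FPKM.

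The ribosome is assembled from ribosomal RNA and one copy of most of these proteins, divided between a small subunit that reads the mRNA and a large subunit that joins amino acids. Because the proteins are needed in balanced amounts, their genes are usually expressed together, and most of their mRNAs begin with a C followed by a pyrimidine run (the TOP element) through which mTOR signalling controls translation. Secretory glands such as the SV, which makes much of the seminal fluid protein, are rich in ribosomes.

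RNA-seq was performed on 4 groups of 4 samples each. All mice were male C57BL/6 at week 5 and had been injected subcutaneously on days 1 to 5 after birth. WT-veh and αERKO-veh pups received corn oil, and WT-DES and αERKO-DES pups received DES at 2 µg per pup per day. The αERKO mice lacked functional oestrogen receptor α (ERα, gene Esr1) in every tissue, so that effects of the gland itself and of hormones made elsewhere cannot be told apart. By the study's methods, WT pups came from purchased pregnant females and αERKO mice from breeding heterozygous animals. Differences between the genotypes therefore cannot be told apart from differences of colony. The study's methods describe pooled mice as the source of WT-DES RNA and single mice for the other groups, with fewer pools than the 4 samples analysed here, so the spread within WT-DES may be partly technical. The p-values below measure only the spread between these samples.

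Esr1 stood at 2.81 to 4.55 FPKM in WT-veh and 8.74 to 19.6 in WT-DES. In αERKO it stood at 1.3 to 1.75 FPKM without and 0.91 to 1.64 FPKM with DES, so both αERKO groups lay below both WT groups. The 8 SV secretion markers, which include the Svs genes of seminal vesicle secretory protein, summed to 49597 to 57994 FPKM in WT-veh and to 2436 to 7951 in WT-DES. The number of reads per sample is unknown, because only FPKM values (fragment numbers scaled to transcript length and to library size) were used. Summed FPKM over all genes differed between groups, with 590446 to 652708 in WT-veh against 375207 to 437619 in WT-DES, so each change is given on the deposited scale and, where it matters, with the sums made equal.

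To show what these genes share at the DNA level, 30 bases around the RefSeq start site were read for members on which the results turn (GRCm38.p6, 15 bases before the start and 15 from it, written in the direction of transcription). Of the 83 members, 62 had an entry in the RefSeq promoter table. The capitals mark a C followed by at least 4 C or T that begins within 5 bases of the annotated start, the form of a TOP element. A gene with several annotated starts counted as carrying a motif where any start did, and the start shown is then one with the run.
Rps6, chr4:86857353-86857382, minus strand: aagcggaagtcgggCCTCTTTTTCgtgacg
Rps9, chr7:3704026-3704055, plus strand: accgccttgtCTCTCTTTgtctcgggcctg
Rps27, chr3:90213634-90213663, minus strand: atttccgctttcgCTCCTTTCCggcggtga
Rps27l, chr9:66946071-66946100, plus strand: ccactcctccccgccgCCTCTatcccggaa
Rpl36a, chrX:134585639-134585668, plus strand: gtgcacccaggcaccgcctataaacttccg
Rpl36al, chr12:69184053-69184082, minus strand: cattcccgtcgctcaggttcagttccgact
Rpl22l1, chr3:28805493-28805522, plus strand: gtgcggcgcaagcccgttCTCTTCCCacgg

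Such a run was found at 29 of the 62 matched members (46.8%) and at 21.2% of all 27025 genes in the promoter table. The letters CGGAAG, the core that ETS family transcription factors such as GABP bind, stood on either strand within 250 bases before to 50 after the start of 42 members (67.7%), against 18.8% of all genes, and the reverse form CTTCCG itself opens with a pyrimidine run. Rps6, Rps9 and Rps27 carried the run, Rpl22l1 and Rps27l carried one as well, the latter of the shortest length counted, and Rpl36a and Rpl36al had none at the start used. Members with and without the run had similar median log2 changes between WT-DES and WT-veh, −0.87 for 29 genes and −0.89 for 33 genes, a description with no test.

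Levels differed widely among members. FPKM is scaled to length, so that levels can be set side by side between genes. In WT-veh the median member stood at 69.7 FPKM, with quartiles of 36.9 and 182.3 FPKM. Rpl41, which encodes the smallest ribosomal protein, was the highest member in all 4 groups, with a mean of 2255 ± 109.3 FPKM (SD, n = 4) in WT-veh. The next highest of the large subunit were Rpl8 with 1228 ± 57.1 FPKM and Rpl4 with 711.1 ± 30.6 FPKM in WT-veh. In the small subunit Rps9 (1458 ± 81.6 FPKM) and Rps15 (845.7 ± 39.7 FPKM) were among the highest in WT-veh. Members made up 7 of the 100 genes with the highest mean FPKM and 25 of the highest 1000.

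The low levels of many members went with near-identical copies elsewhere in the genome. Mammalian ribosomal protein genes have left many processed pseudogenes, and reads that fit several places can be split or lost, so the level of such a gene is uncertain. A gene counted as a copy where a stretch of at least the read length matched at 98% identity or more in GENCODE M21. The 15 members without a copy had a median of 358.8 FPKM in WT-veh, the 12 members with 1 copy 195.2, the 26 with 2 or 3 copies 55.9, and the 30 with 4 or more copies 45.0. Over the 83 members Spearman's rho between the WT-veh level and the number of copies was −0.54, whereas with transcript length it was 0.07 (both descriptions across genes). The order of the members was nearly the same in every group, with a Spearman's rho between the means of WT-veh and of αERKO-veh, αERKO-DES and WT-DES of 0.998, 0.997 and 0.989.

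**Figure D1:**
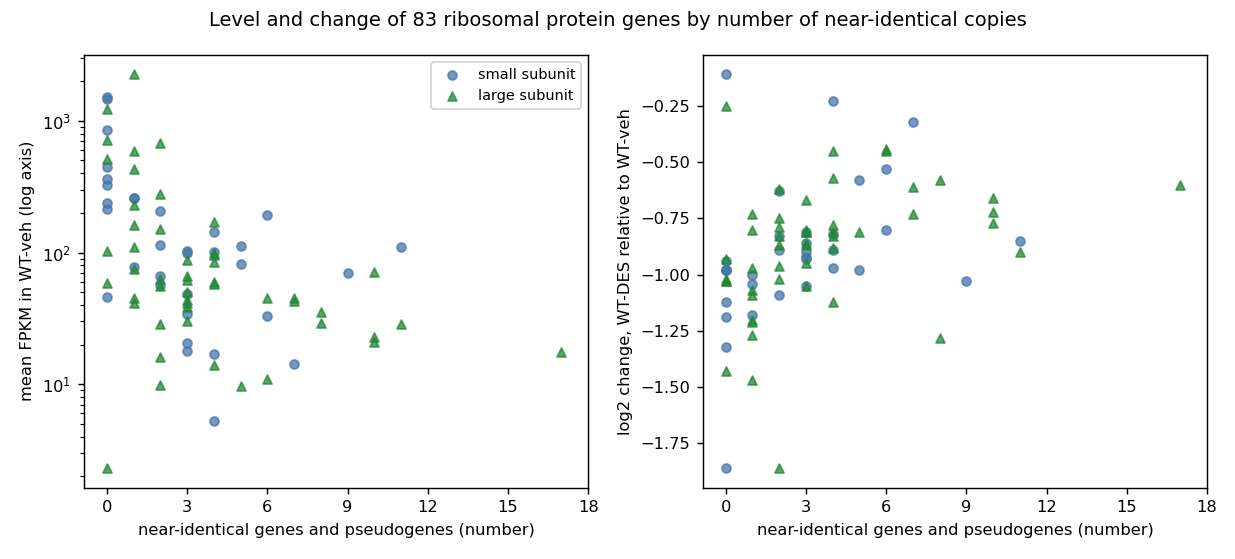
Mean FPKM in WT-veh (left, log axis) and log2 change of WT-DES relative to WT-veh (right) of each of the 83 members against its number of near-identical genes and pseudogenes, with circles for the small and triangles for the large subunit. Members without copies had a median of 358.8 FPKM and those with 4 or more copies 45.0 FPKM, and the median log2 changes were −1.02 and −0.78.

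The first comparison asked what neonatal DES did where ERα was present. Ribosomal protein mRNAs were lower in WT-DES than in WT-veh almost throughout. The WT-veh samples had a median over members of 72.7, 58.6, 72.5 and 71.7 FPKM, and the WT-DES samples of 42.1, 38.4, 37.2 and 39.8 FPKM, without overlap. They made up 2.63% to 2.90% of the summed FPKM of WT-veh samples and 1.79% to 2.01% of that of WT-DES samples. By limma on log2(FPKM + 1), 81 of 83 members fell and none rose, where 37.3% of the 15988 genes tested fell and 36.4% rose. In 80 members every WT-DES sample lay below every WT-veh sample, against 34.0% of all genes. The median log2 change was −0.88 over members (quartiles −1.03 and −0.76) and −0.01 over all genes tested, and it was −0.93 in the small and −0.83 in the large subunit. Counted as differentially expressed genes (DEGs, with a ratio of means of at least 1.5), 74 members were lower, against 24.1% of all genes. The 2 members that did not pass were Rps4l and Rpl3l. Fewer cells of a type that is rich in these mRNAs and less of them per cell cannot be told apart in bulk tissue.

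With every sample rescaled to the same summed FPKM, 60 members were lower and 4 higher, against 16% and 60.2% of all genes, and the median log2 change was −0.31 while that of all genes became 0.49. Under quantile normalization 67 members were lower and 5 higher, against 38.1% and 32.4% of all genes, with a median of −0.45, the higher ones including Rps9, Rpl8, Rpl41 and Rpl22. The median of the members lay below that of all genes on each of these scales, and its size depended on the scale.

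**Figure D2:**
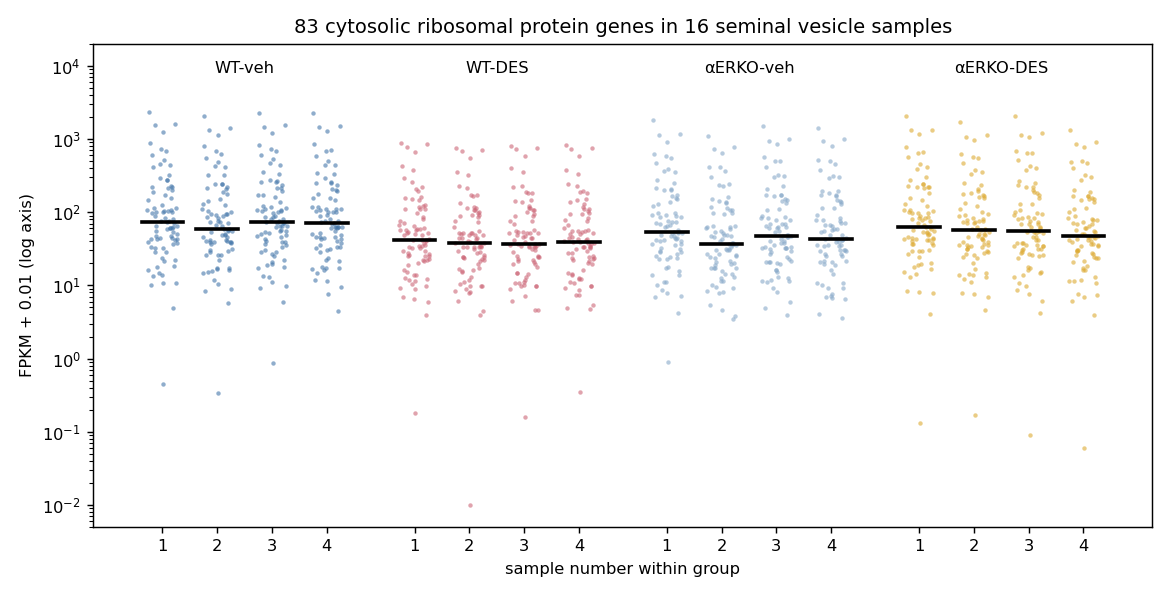
FPKM of the 83 members (points, log axis after adding 0.01) in each of the 16 samples, with the median of each sample as a bar. The WT-veh medians lay at 58.6 to 72.7 FPKM, those of αERKO-DES at 48.0 to 63.8, of αERKO-veh at 37.4 to 54.0 and of WT-DES at 37.2 to 42.1, and in WT-DES and αERKO-DES the lowest points were Rpl3l.

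Among the core members of the small subunit, Rps6, the protein phosphorylated by S6 kinase downstream of mTOR, had 202.7, 176.3, 196.6 and 197.9 FPKM in WT-veh and 127.1, 100.1, 106.0 and 110.9 FPKM in WT-DES. The groups did not overlap, and Rps6 fell by 0.80 ± 0.11 on the log2 scale (SE, adjusted p = 1.24e-05). Rps9 had 1539.6, 1345, 1474 and 1472 FPKM in WT-veh and 790.3, 690.5, 743.5 and 723.0 FPKM in WT-DES. It fell by 0.98 ± 0.15 (adjusted p = 2.68e-05), again without overlap, although it was higher by 0.54 under quantile normalization. Rps3, which sits where the mRNA enters, fell by 0.94 (with a value of 0.04 under quantile normalization), Rps14 by 1.32, Rps19, the gene most often mutated in Diamond-Blackfan anaemia, by 1.05, and Rpsa, also known as the laminin receptor, by 0.89. Rps27a, which encodes a fusion of ubiquitin with a ribosomal protein, fell by 0.92.

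In the large subunit the acidic stalk proteins, which recruit elongation factors, fell together. Rplp0 had 445.4, 413.0, 438.3 and 437.6 FPKM in WT-veh and 218.9, 171.7, 181.3 and 184.6 FPKM in WT-DES. The WT-DES samples lay far below all WT-veh samples, the first being the highest of them, and the log2 change was −1.20 ± 0.12 (adjusted p = 5.27e-07). Rplp1 fell by 1.27 and Rplp2 by 0.97. Rpl5 and Rpl11, which bind the p53 regulator Mdm2 when ribosome assembly fails, fell by 0.78 and 0.81. Rpl10, a late-joining protein of the subunit interface, fell by 1.28, Rpl13a by 1.02, Rpl39 at the exit tunnel by 0.96 and Rpl32 by 1.43. Rpl41 had 2352, 2099.8, 2268 and 2302 FPKM in WT-veh and 878.3, 753.9, 798.3 and 828.4 FPKM in WT-DES, and fell by 1.47 ± 0.17 (adjusted p = 1.86e-06) on the deposited scale, but was higher by 0.54 under quantile normalization.

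**Figure D3:**
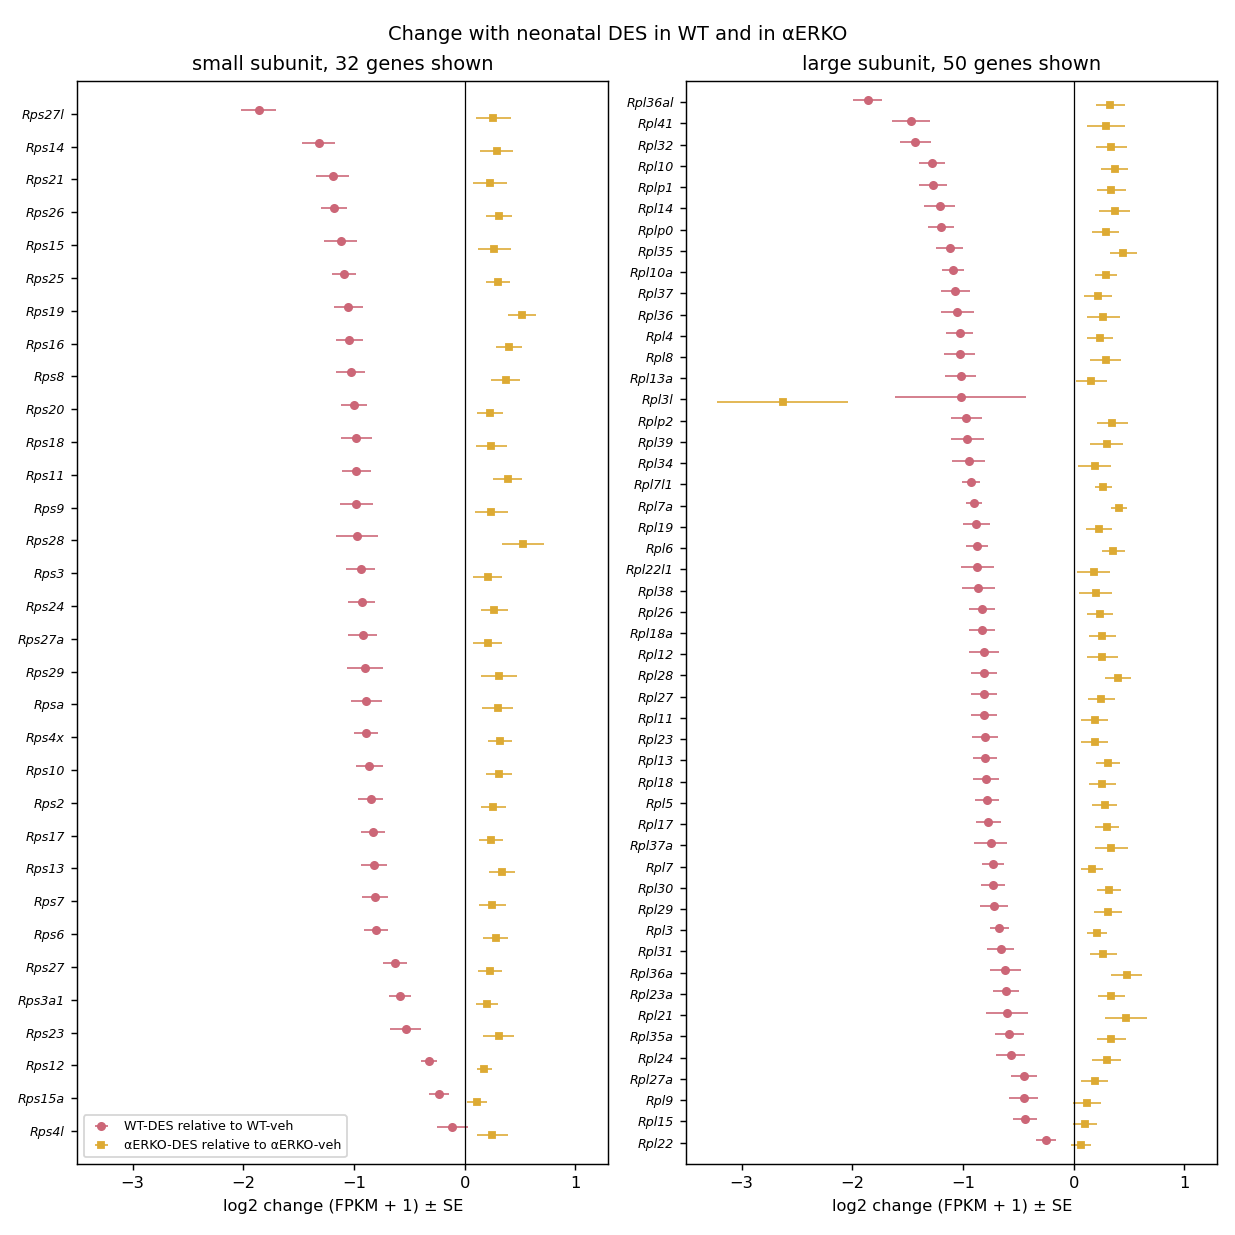
Log2 change with DES of 82 members with their SE from limma, in WT (circles) and in αERKO (squares), ordered by the change in WT within each subunit. In WT all points lay below 0, from −1.86 for Rpl36al and Rps27l to −0.11 for Rps4l, whereas in αERKO all members but Rpl3l lay above 0.

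The fall was not of one size. When each sample was shifted by the median log2(FPKM + 1) of its members, a comparison added after the values were seen, 28 members were lower and 10 higher than that median in WT-DES compared with WT-veh, where 8.84% of all genes were lower and 71.0% higher. Rpl36al (−1.08), Rps27l (−1.08) and Rpl41 (−0.68) were the furthest below it, and Rps4l (0.67), Rps15a (0.56), Rpl22 (0.54) and Rps12 (0.46) the furthest above it, though Rps15a lay below it after length correction and Rpl41 above it under quantile normalization. The length correction took Rps15a at 5130 nt, the longest of the members, and the transcript behind its FPKM is not known. The 10 higher members included 8 with 4 or more near-identical copies, and among all members the log2 change was −1.02 in the median without a copy and −0.78 with 4 or more.

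The paralogs, genes for related forms of a ribosomal protein, held both ends of this range. Rps27l, a paralog of Rps27 that p53 induces, had 224.2, 212.3, 257.6 and 254.6 FPKM in WT-veh and 70.6, 51.9, 68.9 and 67.6 FPKM in WT-DES. Its groups lay far apart, with a log2 change of −1.86 ± 0.16 (adjusted p = 1.21e-07), whereas Rps27 fell by 0.63 ± 0.11 (adjusted p = 1.56e-04). Rpl36al had 690.5, 616.8, 689.4 and 707.3 FPKM in WT-veh and 194.9, 164.9, 185.2 and 195.4 FPKM in WT-DES. It also fell by 1.86 (SE 0.13, adjusted p = 1.59e-08), and Rpl36a, its parent gene on the X chromosome, fell by 0.62 ± 0.14 from a mean of only 9.84 ± 1.52 FPKM in WT-veh. After length correction neither parent passed, with −0.05 for Rps27 (adjusted p = 0.562) and −0.07 for Rpl36a (adjusted p = 0.628), while Rps27l (−1.31) and Rpl36al (−1.40) still fell. Rpl36al and Rpl36a have near-identical copies, so reads may be divided between them.

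In a further pair the paralog also had the lower value. Rpl22, whose protein represses its paralog, had 106.1, 94.9, 107.1 and 100.8 FPKM in WT-veh and 86.9, 86.8, 87.6 and 82.2 FPKM in WT-DES. It lay lower by 0.25 ± 0.09 (adjusted p = 0.0244) with no overlap, but this call was lost when WT-veh 1, WT-veh 3 or WT-DES 4 was left out (adjusted p of 0.0587 to 0.0628), and Rpl22 was higher by 0.33 with equal sums. After length correction it stood at −0.13 (adjusted p = 0.129). Rpl22l1 fell by 0.87 ± 0.15 (adjusted p = 8.79e-05), from 66.3 ± 9.46 to 35.7 ± 2.61 FPKM. Rps4l had 39.4, 46.4, 47.0 and 50.4 FPKM in WT-veh and 56.5, 38.4, 36.1 and 39.9 FPKM in WT-DES. The groups overlapped, and the change of −0.11 ± 0.14 did not pass (adjusted p = 0.456), while its parent Rps4x fell by 0.89 ± 0.11. After length correction Rps4l turned direction and passed, at 0.34 (adjusted p = 0.0211). Rpl7l1 (−0.93) and Rpl7 (−0.73) both fell.

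**Figure D4:**
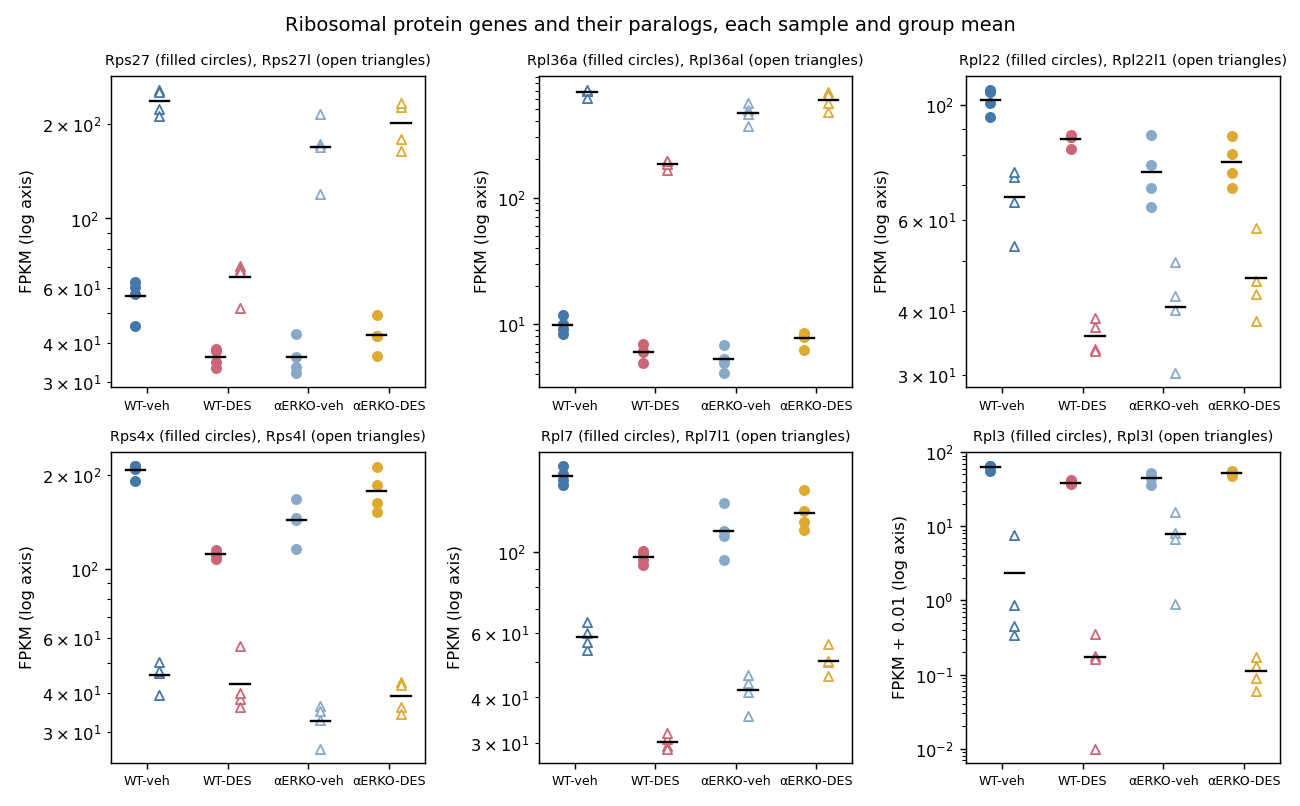
FPKM of 6 ribosomal protein genes (filled circles) and their paralogs (open triangles) in each sample on a log axis, with group means as bars and 0.01 added in the Rpl3 panel. Rps27l and Rpl36al had means of 64.7 and 185.1 FPKM in WT-DES, Rps4l overlapped between WT-veh and WT-DES, and Rpl3l was scattered.

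Rpl3l, the striated muscle form of Rpl3, was the most scattered of the named members. The WT-veh samples had 0.44, 0.33, 0.85 and 7.62 FPKM and the αERKO-veh samples 0.89, 8.11, 15.4 and 6.67 FPKM. After DES the values were 0.17, 0, 0.15 and 0.34 FPKM in WT and 0.12, 0.16, 0.08 and 0.05 FPKM in αERKO. The sums of the 8 skeletal muscle markers in the same samples were 736.9, 791.7, 748.3 and 1995 FPKM in WT-veh and 753.2, 1675, 2343 and 1528 FPKM in αERKO-veh. After DES they were 336.5, 37.6, 72.4 and 96.6 FPKM in WT and 857.1, 711.5, 756.8 and 595.0 FPKM in αERKO. Within WT-veh and αERKO-veh the samples high in Rpl3l were those high in the markers, whose part in the result was not tested. Rpl3, by contrast, fell by 0.67 ± 0.09 in WT-DES relative to WT-veh (adjusted p = 1.43e-05).

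The second comparison set αERKO against WT without DES, where loss of ERα went together with the source of the mice. Members were lower in αERKO-veh than in WT-veh, by less. Their median FPKM was 54.0, 37.4, 47.4 and 43.6 in the αERKO-veh samples, all below the lowest WT-veh sample, with the second sample the lowest. By limma 82 of 83 members fell and none rose, where 15.2% of all genes fell and 10.8% rose, and the exception was Rpl3l. In 76 members the groups did not overlap, against 17.1% of all genes in that direction. The median log2 change was −0.60 (all genes −0.02), and 43 members were DEGs, against 2.63% of all genes. Rpl21 (−0.88), Rps14 (−0.82) and Rpsa (−0.81) fell most, and Rpl15 (−0.38) and Rps15a (−0.37) least. The Rpl15 call was lost without WT-veh 3, WT-veh 4 or αERKO-veh 2 (adjusted p of 0.0543 to 0.0782) and after length correction (−0.08, adjusted p = 0.531). Rps6 stood at 153.3, 107.1, 132.6 and 131.1 FPKM in αERKO-veh, all below WT-veh, and fell by 0.57 ± 0.11 (adjusted p = 0.00663). Rps27l and Rpl36al had −0.51 and −0.54 here, and neither passed after length correction (adjusted p of 0.415 and 0.102). The Rps27l call was also lost in 6 of the 16 fits without 1 sample (0.0526 to 0.117), with −0.35 without αERKO-veh 2.

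In this comparison the change of all genes followed transcript length. Members have short transcripts, with a median of 757 nt (345 to 5130 nt) against 2690 nt for 14981 other tested genes. The median log2 change in αERKO-veh relative to WT-veh was −0.32 for other genes under 500 nt, −0.31 from 500 to below 1000 nt, −0.20 up to 2000 nt, −0.02 up to 4000 nt and 0.19 at 4000 nt or more, and Spearman's rho over 15064 genes with a length was 0.55. Members lay lower than other genes of like length, at −0.63 under 500 nt and −0.60 from 500 to below 1000 nt. After the length trend of each sample was removed, 50 members fell, against 6.57% of all genes with a length, with a median log2 change of −0.30. With the longest transcript as the length 42 fell, against 6.68%. In WT-DES relative to WT-veh the other genes ran from −0.48 under 500 nt to 0.31 at 4000 nt or more, and 66 members fell and 2, Rps4l and Rps12, rose after the same correction, against 38.1% and 35.1% of all genes, with a median of −0.44. Within samples, Spearman's rho between transcript length and a gene's level over its 16-sample mean ran from −0.50 to −0.22 in WT-veh, from −0.11 to 0.45 in αERKO-veh and, for WT-DES, from 0.16 to 0.19, where αERKO-veh 2, the lowest of its group in the members, was the highest. In αERKO-DES it ran from −0.28 to 0.16. The part of RNA quality or library preparation was not tested.

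**Figure D5:**
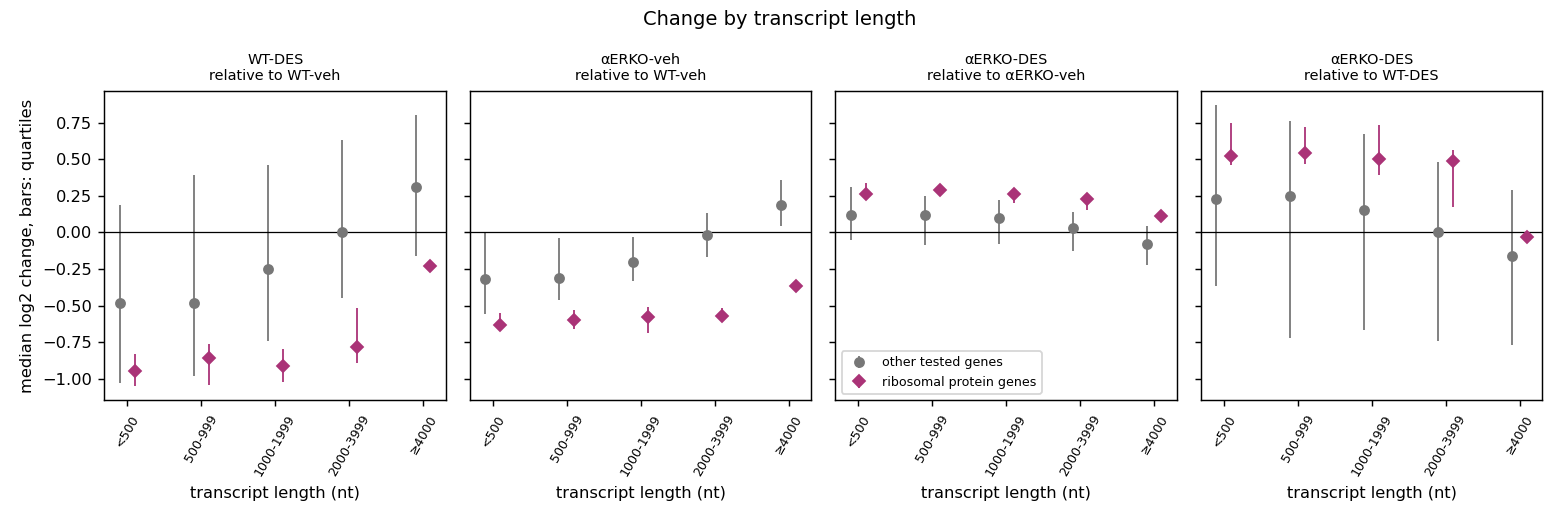
Median log2 change with quartiles of the members (diamonds) and of all other tested genes (circles) in 5 classes of transcript length, for 4 comparisons. Short genes were lower in αERKO-veh and WT-DES than in WT-veh, and members lay below other genes of their class in both, at −0.60 against −0.31 and −0.86 against −0.48 from 500 to below 1000 nt.

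The third comparison asked whether DES acted without ERα. Only 2 members passed between αERKO-DES and αERKO-veh, against 2.85% of all genes. Rpl7a rose by 0.41 (adjusted p = 0.0341), with 29.4, 26.5, 28.1 and 26.1 FPKM in αERKO-DES above 23.0, 17.3, 20.7 and 21.4 in αERKO-veh, and Rpl3l lay lower by 2.63 (adjusted p = 0.0376). Rpl3l met the minimum only through the vehicle groups, and its call was lost with no minimum on FPKM and in 8 of the 16 fits without 1 sample (0.0506 to 0.147). Rpl7a is named because it was 1 of the 2. It has 11 near-identical copies, all pseudogenes, over 87.6% of its transcript, so its level is uncertain. Its call was lost with equal sums, under quantile normalization and in a model of only these groups, where no member passed as higher. The median log2 change over members was 0.27 (all genes 0.02), every member but Rpl3l had a positive value, and 46 members were at or below 0.05 before adjustment, where 25.3% of all genes were. In 4 members all αERKO-DES samples lay above all αERKO-veh samples and in 1 below, against 6.40% and 6.57% of all genes. The number that passed was unstable. It was 26 without αERKO-veh 1, 8 without αERKO-DES 4, 7 without WT-DES 1, 4 without αERKO-veh 3, 1 without WT-veh 1 or WT-DES 4, and 0 without WT-veh 3, αERKO-veh 2, αERKO-veh 4, or any of αERKO-DES 1 to 3. It was 63 with sample weights, where 41.8% of all genes passed, and the 26 went with 8.69% of all genes. The 8, 7 and 4 went with 636, 1246 and 759 of the 15988 genes tested, so the 7 and the 4 lay near the share of all genes.

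Between the DES-treated groups, 70 members were higher in αERKO-DES than in WT-DES and none lower, where 37.8% of all genes were higher and 36.2% lower. In 64 members the groups did not overlap, against 33.8% of all genes in that direction. The median log2 difference was 0.52 (all genes 0.00), and 36 members were DEGs, against 23.9% of all genes. Rpl36al (1.65 ± 0.13) and Rps27l (1.62 ± 0.16) differed most. Rpl22 (−0.15), Rps4l (−0.11) and Rpl3l (−0.07) had the lowest values and did not pass. With equal sums of FPKM 23 members were higher and 9 lower, against 18.2% and 56.6% of all genes, with a median of 0.05 where that of all genes was −0.42.

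The difference between the DES effects in WT and in αERKO was itself tested as an interaction. It passed for 81 members, all with the lower value in WT, against 36.2% of all genes in that direction, with a median of −1.15. The furthest were Rpl36al (−2.19 ± 0.19), Rps27l (−2.13 ± 0.23) and Rpl32 (−1.77 ± 0.20). The Rpl22 value of −0.32 passed but lost its call in 10 of the 16 fits without 1 sample (adjusted p of 0.0513 to 0.0869), and Rps15a (−0.35) lost it without WT-veh 2, WT-veh 3 or αERKO-DES 2 (0.0512 to 0.0551). Rps4l (−0.37, adjusted p = 0.0983) and Rpl3l (1.61, adjusted p = 0.0962) did not pass. With equal sums 59 members passed lower and 1 higher, against 14.4% and 59.0% of all genes. These comparisons share samples, so they do not stand as separate evidence.

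Within groups the members moved together from sample to sample. The correlation of a member's deviations from its group means with the mean deviation of the other members had a median of 0.90 over 16 samples, and it was above 0.8 for 66 of 83 members. It was below 0.5 for Rpl3l (−0.21), Rps28 (0.05), Rps15a (0.15), Rps12 (0.34) and Rps4l (0.48). All points of a sample share its library. Of 8607 other genes with a mean above 10 FPKM, those whose profile over the 16 samples was most like the members' mean were Brk1 (r = 0.996), Gm5148 (0.990), Eif3k (0.989), Josd2 (0.988) and Rplp2-ps1 (0.987), and 980 genes had an r above 0.9.

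The subunits were also compared by their sums, with no test. The summed FPKM of the small subunit over that of the large was 0.917 to 0.936 in WT-DES, against 0.819 to 0.845 in WT-veh, 0.809 to 0.822 for αERKO-veh and 0.782 to 0.816 for αERKO-DES. Rpl41 and Rpl36al, both abundant and both among the 3 largest falls, belong to the large subunit, but the ratio was not computed without them. Gene by gene the median log2 change in WT-DES relative to WT-veh was −0.93 in the small and −0.83 in the large subunit.

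Other genes of translation were taken from lists, whose values are on the deposited scale and were not recomputed under other scalings. Their counts stand against the 37.3% of all genes that fell and 36.4% that rose in WT-DES, and the 15.2% that fell and 10.8% that rose in αERKO-veh, each compared with WT-veh. Of 21 translation factors and associated genes with known TOP mRNAs, 18 fell between WT-veh and WT-DES and none rose, with a median log2 change of −0.68. Fau (−1.04), which encodes a fusion of a ubiquitin-like protein with a ribosomal protein, fell, as did Eef1a1 (−0.96), Eef2 (−0.70), Tpt1 (−0.99) and Npm1 (−0.30), from Naca at −1.25 to Eif4b at 0.09, which did not pass. All 28 genes of the initiation factor list fell (median −0.83, Eif3j1 −1.44 to Eif3c −0.27). Other initiation factors were counted with the TOP mRNAs instead, and of those Eif3e (−0.09) and Eif4b did not pass. Of 34 ribosome biogenesis genes 32 fell (median −0.63), among them Ncl (−0.43), Fbl (−0.72) and, furthest, Nop10 (−1.33), while Eftud1 at 0.12 did not pass. In αERKO-veh relative to WT-veh these 3 lists had 15, 15 and 28 members that fell, and 1 initiation factor, Eif3a, rose.

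Of 20 RNA polymerase I genes, which transcribe ribosomal RNA, 15 fell and 1 rose in WT-DES relative to WT-veh. Polr1b (−0.43), Rrn3 (−0.46) and Ubtf (−0.44) fell, Polr2e fell most (−1.15), Taf1b rose (0.21), and Polr1a at −0.08 did not pass. Of 25 genes of the mTOR pathway and its targets 17 fell and 5 rose. Myc, which drives ribosome production, fell by 1.19, from 55.4 to 23.6 FPKM in the mean, and Eif4ebp1 fell by 1.07, Larp1, which binds the TOP element, by 0.55 and Rps6kb1 by 0.57, whereas Mtor rose by 0.24 and Rictor by 1.07, and Ddit4 fell most (−1.77). Of 76 mitochondrial ribosomal protein genes 70 fell (median −0.85, Mrps18a −1.94), and all 14 proteasome core subunits fell (median −0.84, Psmb5 −1.23).

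Cell type markers moved in the same samples. In WT-DES relative to WT-veh all 8 secretion markers fell (median −3.70), 5 of 6 epithelial markers fell and Cdh1 rose (0.25), with sums of 1701 to 1904 FPKM in WT-veh and 842.9 to 1034 in WT-DES, and 5 of 6 smooth muscle markers fell, with sums of 2993 to 3734 and 791.1 to 3580 FPKM that overlapped through WT-DES 1. All 6 fibroblast markers rose, with sums of 730.8 to 881.2 and 1916 to 2091 FPKM, and all 8 leukocyte markers rose, with sums of 84.2 to 145.9 and 428.9 to 630.6 FPKM. No marker of these lists was at 0 throughout a group. Of 6 adipose markers 4 rose (median 1.53).

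In αERKO-veh compared with WT-veh none of the 8 secretion markers passed (median −0.50), but their sums, 30143 to 47254 FPKM, all lay below those of WT-veh. Of 6 epithelial markers 1 rose and 1 fell, and their sums, 1271 to 1599 FPKM, also lay below all WT-veh samples. Of 8 skeletal muscle markers 3 rose (median 2.81). Between αERKO-DES and αERKO-veh no secretion or epithelial marker passed, while 5 of 8 skeletal muscle markers (median −4.16) and 4 of 6 adipose markers (median −2.95) fell. Of 6 fibroblast markers 1, Dcn, fell there (median −0.49), and their sums of 495.8 to 593.7 FPKM lay below the 598.5 to 980.0 FPKM of αERKO-veh. Compared with WT-DES, αERKO-DES had all 8 secretion markers (median 3.48), 5 of 6 epithelial and 5 of 6 smooth muscle markers higher, and all 6 fibroblast, all 8 leukocyte and all 6 adipose markers (median −5.03) lower. The part of cell composition in the ribosomal protein results was not tested.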

How the data were processed

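RNA of whole SV at week 5 was sequenced in 16 samples, 4 per group, as paired 126 nt reads. The authors aligned reads to mm10 with TopHat2 2.0.4 and computed the deposited FPKM values with Cufflinks 2.0.2. The annotation and the handling of reads that fit several places for the table are not given in the sources used here. Read numbers are unknown, so no counting interval is given. Samples were grouped by the labels.

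Values were analysed as log2(FPKM + 1), so changes of low genes are understated. Those 15988 genes whose mean exceeded 1 FPKM in any group were fitted in one limma 3.58.1 model (R 4.3.3, empirical Bayes with trend) over all 16 samples, with Benjamini-Hochberg adjustment over all of them and an adjusted p of at most 0.05 as the threshold. DEGs also had group means that differed 1.5-fold or more. Contrasts were WT-DES against WT-veh, αERKO-veh against WT-veh, αERKO-DES against αERKO-veh, αERKO-DES against WT-DES, and the interaction. The fit was tested on simulated data. Near-identical copies and transcript lengths came from GENCODE M21 (BLAST 2.17.0), and start sites from RefSeq.

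The members and lists were chosen with earlier results of these data known. Named members were the 3 most abundant of each subunit, the 3 highest and 3 lowest changes of each contrast, paralogs with their parents, and textbook members, except genes that are not reported here by name. Alternatives were another pseudocount, other minimums, sample weights, a replicate block, other scalings, a length correction, a stricter threshold and each sample left out. The change relative to the members' median and the length correction on the longest transcript were added after seeing the data.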

Additional observations from a re-analysis of the deposited data

Results flagged for a closer look

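Of 156 groups of 4 values tested by Dixon's criterion, 4 held a sample far from the others, where chance gives about 1 in 20. They were the median FPKM of the members in WT-veh 2 (58.6), Rpl3l in WT-veh 4 (7.62 FPKM), Rpl22 in WT-DES 4 (82.2 FPKM) and Rps27l in WT-DES 2 (51.9 FPKM).

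The DES effect differed between WT and αERKO by the interaction test of limma for 81 members, all lower in WT, against 36.2% of all genes in that direction, with a median of −1.15 on the log2 scale. In the small subunit the interaction was −1.61 for Rps14, −1.40 for Rps15, −0.35 for Rps15a, −1.57 for Rps19, −0.86 for Rps27, −1.13 for Rps27a, −2.13 for Rps27l, −1.50 for Rps28, −1.15 for Rps3, −1.20 for Rps4x, −1.08 for Rps6, −1.22 for Rps9 and −1.19 for Rpsa. In the large subunit it was −1.65 for Rpl10, −0.99 for Rpl11, −1.19 for Rpl13a, −0.54 for Rpl15, −1.06 for Rpl21, −0.32 for Rpl22, −1.05 for Rpl22l1, −0.88 for Rpl3, −1.77 for Rpl32, −1.11 for Rpl36a, −2.19 for Rpl36al, −1.26 for Rpl39, −1.27 for Rpl4, −1.76 for Rpl41, −1.06 for Rpl5, −0.90 for Rpl7, −1.20 for Rpl7l1 and −1.32 for Rpl8. In the stalk it was −1.49 for Rplp0, −1.60 for Rplp1 and −1.32 for Rplp2. Of these, the calls of Rpl22 and Rps15a were lost in 10 and 3 of the 16 fits that left out 1 sample.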

How the results depend on the processing

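Depth is unknown and limits the low members most. In WT-DES relative to WT-veh the median log2 change of the members was −0.45 under quantile normalization, −0.31 with equal sums of FPKM, −0.45 with equal sums without the 20 most abundant genes, −0.44 with length correction, with or without the replicate block, and −0.50 on the longest transcript. In αERKO-veh relative to WT-veh these medians were −0.42, −0.36, −0.42, −0.30 and −0.29, with 50 members called after length correction and 42 on the longest transcript. In αERKO-DES relative to WT-DES they were 0.22, 0.05, 0.15, 0.27 and 0.33. There 32 members were called at equal sums, 23 higher and 9 lower, where 2912 of all 15988 genes were higher and 9050 lower. Without the 20 genes 40 members were called, 33 higher and 7 lower, where 3575 of all genes were higher and 8326 lower. The interaction medians were −0.59, −0.44, −0.61, −0.63 and −0.66. With equal sums the median of all genes in WT-DES relative to WT-veh was 0.49. The cause of these shifts was not tested.

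In αERKO-DES relative to αERKO-veh 2 members were called, beside 455 of all 15988 genes. A pseudocount of 0.1 gave 4 members (753 genes), no minimum 1 (283 of 22638), and a model of only these groups 0 (7). Sample weights gave 63 (6678), the replicate block 8 (550), quantile normalization 0 (5), equal sums 1 (166) and an adjusted p of 0.01 gave 0 (2). Length correction gave 5 (666 of 15064), block and length correction 8 (670), and the longest transcript 4 (624). Both counts of 4 lay near the share of all genes. The weights stopped before convergence in 2 fits. Relative to the members' median, in WT-DES against WT-veh, 23 members were called at an adjusted p of 0.01, 6 higher and 17 lower. Of all 15988 genes 10378 were higher and 1096 lower by that measure. The interaction has no value in a model of only the groups compared.

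With single samples left out, 79 to 81, 72 to 82, 0 to 26, 63 to 72 and 79 to 82 members were called in the 5 contrasts in the order of the methods, and 33 to 38 relative to the members' median. The medians ran from −0.93 to −0.86, −0.68 to −0.49, 0.17 to 0.36, 0.46 to 0.61 and −1.25 to −1.04. Same-numbered samples correlated between −0.215 and 0.277 in their deviations from group means. Samples of different number were not set beside them, so whether same-numbered samples share a batch or litter cannot be judged from these values. The replicate block gave 81, 82, 8, 73 and 81 calls.

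Of 4466 values of named genes under alternatives, 4168 kept direction and side of the threshold, 244 lost the call and 54 reversed. Under quantile normalization, WT-DES relative to WT-veh was 0.35 for Rpl22, 0.54 for Rpl41, 0.33 for Rpl8, 0.04 for Rps3 and 0.54 for Rps9. There, αERKO-DES relative to WT-DES was −0.13 for Rpl13a, −0.06 for Rpl39, −0.03 for Rpl4, −0.56 for Rpl41, −0.20 for Rpl7, −0.37 for Rpl8, −0.19 for Rps15, −0.27 for Rps3, −0.10 for Rps6, −0.68 for Rps9 and −0.17 for Rpsa. The interaction was 0.42 for Rpl22, 0.44 for Rpl41, 0.17 for Rpl8, 0.02 for Rps3 and 0.46 for Rps9. Relative to the members' median the values were 0.11 for Rpl13a, 0.29 for Rpl4, 0.92 for Rpl41, 0.71 for Rpl8, 0.05 for Rplp0, 0.08 for Rplp1, 0.28 for Rps15, −0.28 for Rps15a and 0.92 for Rps9. With equal sums, WT-DES relative to WT-veh was 0.12 for Rpl15, 0.33 for Rpl22 and 0.25 for Rps15a, αERKO-DES relative to WT-DES was −0.01 for Rpl13a, −0.14 for Rpl22l1, −0.08 for Rpl3, −0.10 for Rpl7 and −0.11 for Rpsa, and the interaction was 0.17 for Rpl15, 0.41 for Rpl22 and 0.25 for Rps15a. Without the 20 genes, these were 0.18 for Rpl22 and 0.13 for Rps15a, −0.03 for Rpl22l1, and 0.01 for Rpl15, 0.24 for Rpl22 and 0.12 for Rps15a. With length correction, with or without the block, Rpl15 was 0.01 for WT-DES against WT-veh and for the interaction, and Rps15a was −0.16 relative to the members' median and −0.09 on the longest transcript.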
